A study of Mus musculus with 8 samples.

Results

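miR-122 is the hepatocyte miRNA, and both of its mature arms, mmu-miR-122-5p and mmu-miR-122-3p, were followed here in mouse serum. The 2 arms were found by name among the 1881 mouse miRNAs of a 1-colour Agilent mouse miRNA microarray, where 4 probes report them. The samples were 4 sera of non-irradiated male C57BL/6NJcl mice (0 Gy) and 4 sera of male C57BL/6NJcl mice exposed to X-rays (7 Gy, delivered at 1 Gy per min), with 1 array per serum. All mice were 8 weeks old, and the irradiated sera were taken at 72 h. The time of collection for the 0 Gy sera on the arrays is not given in the sources used here. The comparison asks which serum miRNAs differ between irradiated and non-irradiated mice, and the p-values below measure only the spread between these sera, which may be technical.

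Hepatocytes transcribe miR-122 from a gene of its own, and it is the most abundant miRNA of the liver. The 5p arm is the guide strand that is loaded into Argonaute and represses target mRNAs, with known effects on cholesterol and lipid metabolism. The 3p arm is the passenger strand and is mostly degraded. miR-122-5p leaks into the blood from injured hepatocytes and is widely used as a serum marker of liver damage.

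The other liver miRNAs and the miRNAs with the nearest patterns are the measure for miR-122 below, and their mature RefSeq sequences (GRCm38.p6) are shown here with the seed, bases 2 to 8, in capitals. Of 11 miRNAs looked up by name 8 matched. Both miR-122 arms and miR-466i-5p were looked up and had no match, so that no miR-122 sequence is shown. miR-148a-3p, miR-192-5p and miR-194-5p shared every detection call with miR-122-5p, calls held by 12.6% of the miRNAs detected on every 0 Gy array. miR-22-3p was detected on all arrays. miR-144-3p, miR-126a-3p, miR-130a-3p and miR-34a-5p were among the nearest in pattern. The 8 sequences have 8 distinct seeds, so that none of these miRNAs share a seed with each other.
miR-148a-3p: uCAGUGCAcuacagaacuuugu
miR-192-5p: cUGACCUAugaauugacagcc
miR-194-5p: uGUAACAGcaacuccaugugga
miR-22-3p: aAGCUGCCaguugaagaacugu
miR-144-3p: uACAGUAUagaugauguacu
miR-126a-3p: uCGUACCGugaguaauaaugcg
miR-130a-3p: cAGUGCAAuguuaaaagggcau
miR-34a-5p: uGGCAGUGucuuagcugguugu
The mature miR-192-5p lies at chr19:6264857-6264877 on the plus strand, close to the second copy of miR-194-5p at chr19:6264658-6264679. miR-148a-3p lies at chr6:51269829-51269850 on the minus strand.

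The arrays differed in ways that touch the results on miR-122. Between 531 and 603 miRNAs were called detected on the 0 Gy arrays and between 378 and 687 on the 7 Gy arrays. The labelling spike-ins, control RNAs carried through the Cy3 labelling step, had log10 signals between 2.73 and 3.68 at 0 Gy. At 7 Gy they were 2.31, 3.35, 1.95 and 1.97 on replicates 1 to 4, and the software placed replicates 1, 3 and 4 out of range. The fold change, share and rank of miR-122-5p and the count of liver-list calls are given with and without those 3 arrays. The detection counts, probe tests, other lists and pattern correlations include them and were not computed without them. The slide rows held both groups, whereas the slide columns each held 1 group, so that column and group cannot be told apart.

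miR-122-5p was called detected in all 4 non-irradiated sera and in 1 of 4 irradiated sera. The signals as deposited, background-subtracted, were 459, 979, 4.94 and 102 array units on 0 Gy replicates 1 to 4. They are sums over both probes except on 0 Gy replicate 3. There the value is that of probe A_54_P2401 alone, and probe A_54_P2400, at 2.19, was left out. On 7 Gy replicate 2 the signal was 2128, the highest of all 8 arrays. It was not detected on 7 Gy replicates 1, 3 and 4, where the software wrote 0.1. The detected irradiated serum thus lay above every non-irradiated serum, and 3 had no detected signal. Those 3 arrays are also the ones with labelling spike-ins out of range, and the part of labelling was not tested. Were there a difference in serum, fewer hepatocytes giving off RNA and less RNA per hepatocyte could not be told apart. The difference in detection did not pass a two-sided exact permutation test (4 of 4 against 1 of 4, p = 0.143).

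The lowest signal at which any miRNA was called on 7 Gy replicates 1, 3 and 4 was 0.725, 0.685 and 1.12, which marks what those arrays could show. A single miRNA's own limit can lie above that value. The software calls a miRNA from its own probes.

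**Figure D1:**
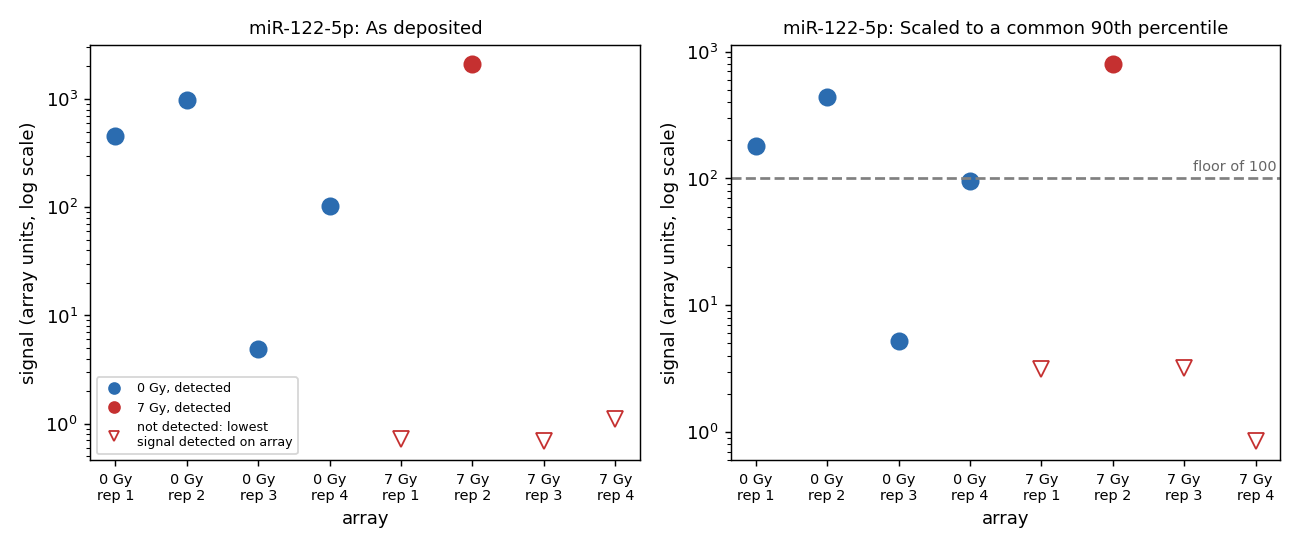
Signal of miR-122-5p on each array (x axis) in array units on a log scale, as deposited on the left and after scaling to a common 90th percentile on the right. Filled circles are detected signals, 0 Gy in blue and 7 Gy in red, and open triangles mark the lowest signal detected for any miRNA on arrays where miR-122-5p was not detected. 7 Gy replicate 2, at 2128 and 806, lies above all 0 Gy arrays and the other 7 Gy arrays have no detected signal.

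The 2 probes of miR-122-5p, with 15 spots each on every array, moved together. The processed spot signal of probe A_54_P2400 was 489, 1063, 7.86 and 103 on 0 Gy replicates 1 to 4 and 2418 on 7 Gy replicate 2. That of probe A_54_P2401 was 1150, 2386, 17.7 and 263 on the 0 Gy arrays and 5112 on 7 Gy replicate 2. The ratio of the second probe to the first was 2.30 ± 0.165 (SD, n = 5 arrays), between 2.11 and 2.56. The deposited signal ranged 431-fold, with its lowest value, on 0 Gy replicate 3, from probe A_54_P2401 alone.

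All 15 spots of both probes were well above background on 4 arrays (0 Gy replicates 1, 2, 4; 7 Gy replicate 2). The SD over spots was then between 2.98% and 8.66% of the mean. On 0 Gy replicate 3, 14 spots of the brighter probe and 1 spot of the dimmer probe were well above background. On 7 Gy replicates 1, 3 and 4 no spot was, and the probe means lay between −1.14 and −0.23. Neither probe passed the comparison of the groups (two-sided exact permutation test on the log2 scaled spot signal with values under 1 set to 1, p = 0.229 and 0.143, each 0.457 after adjustment over the 4 probes).

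miR-122-3p was detected on 1 array, 7 Gy replicate 2, with a signal of 2.46. That array also held the most miR-122-5p. Of its 2 probes, A_54_P00005522 had a mean spot signal of 8.74 ± 2.09 (SD, n = 15 spots) there, with 15 of 15 spots positive and significant and 0 well above background. On 0 Gy replicates 1 to 4 the same probe had 3.73, 1.59, 0.571 and −0.284, with 9, 4, 4 and 0 spots positive and significant. On 7 Gy replicates 1, 3 and 4 it had 0.444, −0.136 and −0.833. The other probe, A_54_P00005521, stayed between −1.45 and 1.19 on all 8 arrays. With detection on 1 array the 3p arm was not tested by limma. Probe A_54_P00005522 did not pass the comparison of the groups (two-sided exact permutation test on the log2 scaled spot signal, p = 0.429). Values under 1 were set to 1 in that test, which was the case on most arrays. For A_54_P00005521 all values were set to 1, so that its test could not show a difference.

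**Figure D2:**
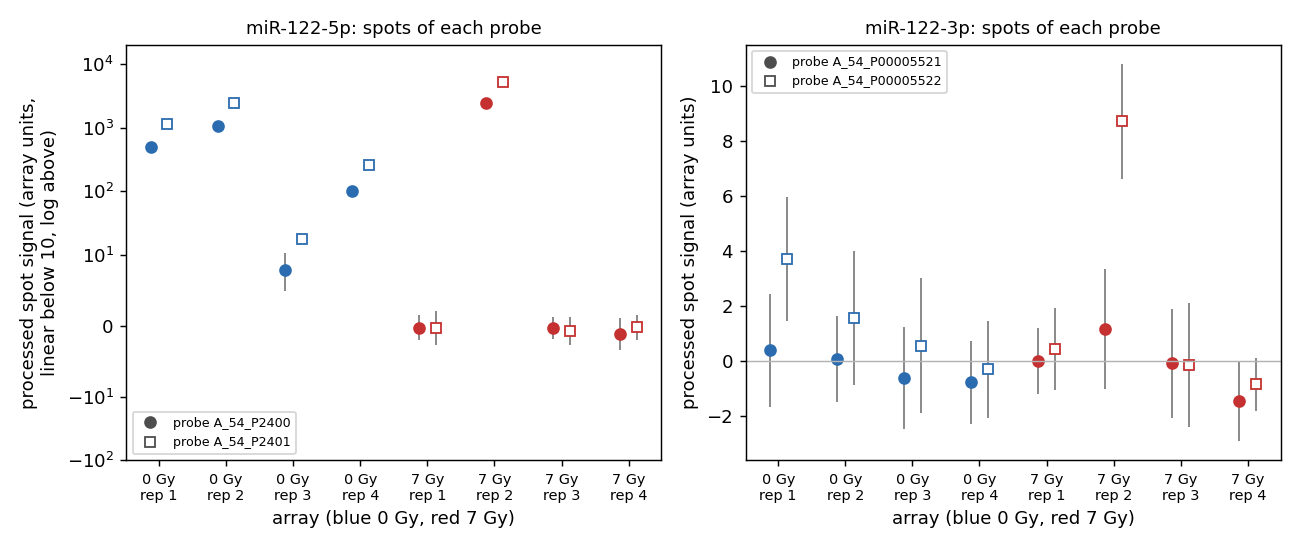
Mean processed signal of the 15 spots of each probe on each array (x axis), with bars for the SD over spots, for miR-122-5p on the left (array units, linear below 10 and log above) and miR-122-3p on the right (array units, linear). Both miR-122-5p probes fall and rise together over the arrays, and 1 miR-122-3p probe reaches 8.74 on 7 Gy replicate 2.

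To compare the groups, the 90th percentile of the mouse miRNAs was brought to the same value on every array, a floor of 100 was applied and values were put on the log2 scale. The scaled signals of miR-122-5p before that floor were 179, 442, 5.26 and 95.2 on the 0 Gy arrays and 806 on 7 Gy replicate 2. Thus 2 of 4 non-irradiated and 3 of 4 irradiated arrays lay at the floor. With the floor the 0 Gy mean was 205 ± 162 (SD, n = 4) and the 7 Gy mean 276 ± 353 (SD, n = 4). The resulting log2 fold change was 0.0068 (standard error, SE, 0.83, limma adjusted p = 0.999). Its 95% interval ran from −1.96 to 1.97, or from 0.257-fold to 3.92-fold, so that the data do not show the groups to be alike. Among all miRNAs tested, 4 were higher and 4 were lower at 7 Gy, 1.92% in each direction (limma, adjusted p under 0.05), and miR-122-5p was not among them. Within slide row 1, with 2 arrays per group, the log2 difference was 0.014, and within slide row 2 all 4 arrays lay at the floor.

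The sign of the difference depended on how undetected sera were treated, on the arrays included and on the scaling. With no floor, where 0.1 stands for an undetected signal, the log2 fold change was −5.41 (SE 2.80, limma adjusted p = 0.252). With undetected signals at the lowest signal detected on the same array it was −3.13 (SE 1.99, limma adjusted p = 0.300). Among the 5 arrays whose spike-ins were in range, where 7 Gy replicate 2 alone stands for the irradiated mice and is assumed to vary like the 0 Gy sera, it was 2.26 (SE 1.00, limma adjusted p = 0.776). Without 7 Gy replicate 2 it was −0.75 (SE 0.55, limma adjusted p = 0.333).

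**Figure D3:**
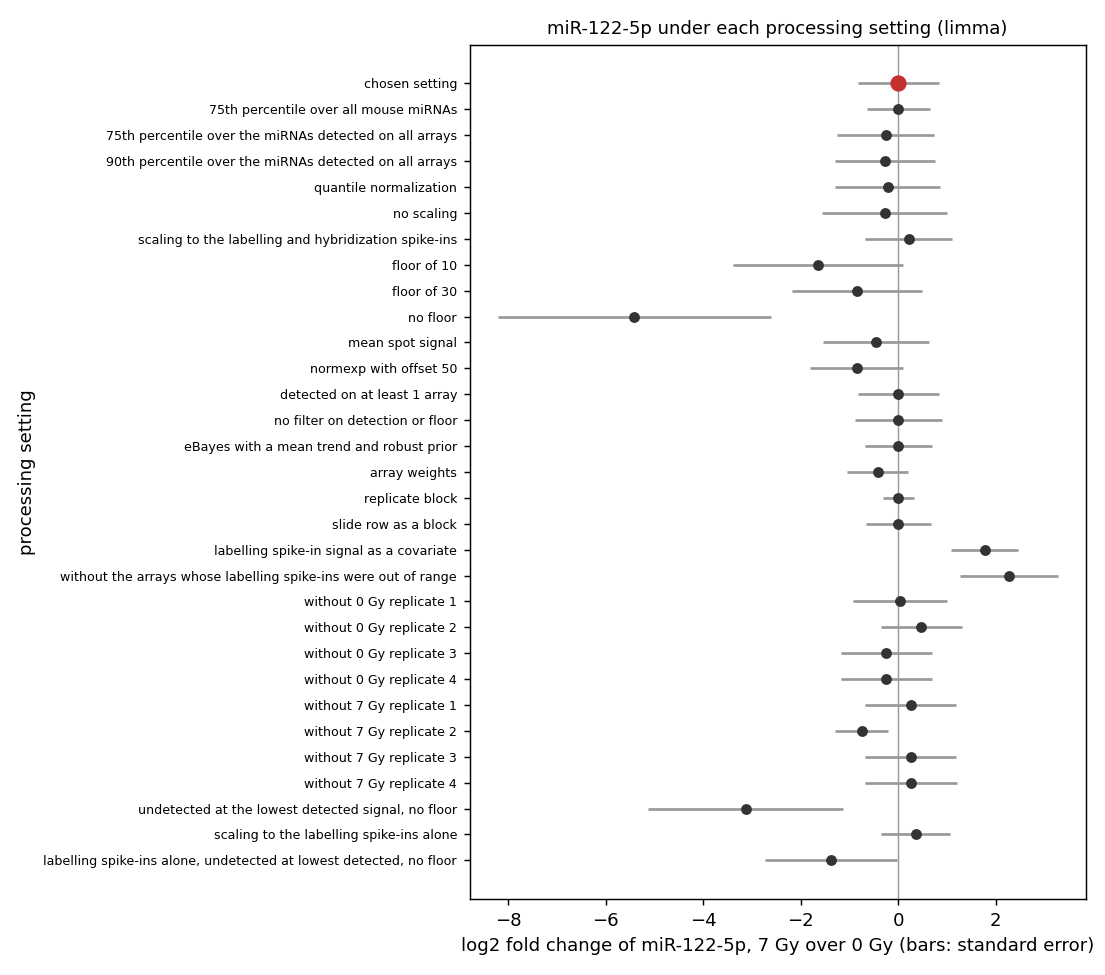
Log2 fold change of miR-122-5p, 7 Gy over 0 Gy, from limma under each processing setting (y axis); bars are standard errors and the red point is the chosen setting at 0.0068. The values run from −5.41 with no floor to 2.26 among the arrays in range.

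The share of the array signal and the rank by brightness need no scaling between arrays. miR-122-5p made up 0.105%, 0.356%, 0.00344% and 0.0904% of the summed signal of detected miRNAs on 0 Gy replicates 1 to 4 and 0.877% on 7 Gy replicate 2. The lowest detectable signal corresponded to 22.5, 18.4 and 6.96 ppm on 7 Gy replicates 1, 3 and 4. On 0 Gy replicate 3 miR-122-5p stood at 34.4 ppm, from probe A_54_P2401 alone. The mean log2 share was lower at 7 Gy, by −5.32 (exact two-sided permutation p = 0.143) with 0.1 for undetected signals and −3.04 (p = 0.371, same exact test) with the lowest detected signal. By brightness miR-122-5p was number 79, 39, 439 and 106 among the 1881 miRNAs on the 0 Gy arrays and number 24 on 7 Gy replicate 2. An undetected miR-122-5p took the mean rank of all undetected miRNAs, 1130.5, 1130 and 1224.5 on 7 Gy replicates 1, 3 and 4. These values reflect how many miRNAs the array detected and not the brightness of miR-122-5p. With them its mean rank was 166 ± 184 (SD, n = 4) in non-irradiated and 877 ± 571 (SD, n = 4) in irradiated sera, with groups that overlapped (exact two-sided permutation p = 0.143). Without 7 Gy replicate 2 the rank difference was 996 (p = 0.0286, the smallest that 7 arrays allow by the two-sided exact permutation test) and that of the log2 share was −8.40 (p = 0.0571, same exact test). Leaving it out removed the only irradiated serum with detected miR-122-5p, so that this separation was fixed by the array removed and shows nothing further. The irradiated arrays that remain, replicates 1, 3 and 4, are those with labelling spike-ins out of range.

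The 5 arrays with detected miR-122-5p were the same 5 whose labelling spike-ins lay in range. The labelling signals were 3.68, 3.45, 2.73 and 3.37 on the log10 scale at 0 Gy, and 0 Gy replicate 3, with the lowest of them, also had the lowest miR-122-5p signal of the group. As a share of the labelling spike-in signal, miR-122-5p was 9.57%, 34.7%, 0.923% and 4.41% on 0 Gy replicates 1 to 4. It was 94.1% on 7 Gy replicate 2. The lowest detectable signal was 0.351%, 0.777% and 1.18% of it on 7 Gy replicates 1, 3 and 4. On replicate 4 this limit exceeded the value of 0 Gy replicate 3, so that such a level would not have been detectable there. When the labelling signal entered the model, the log2 fold change of miR-122-5p was 1.77 (SE 0.69, limma adjusted p = 0.275). The part of labelling in the detection of miR-122-5p was not tested.

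**Figure D4:**
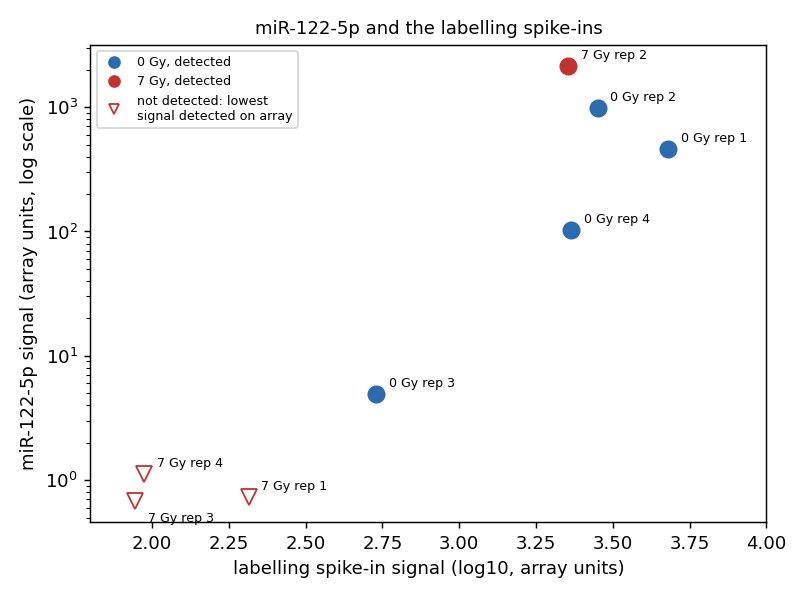
Signal of miR-122-5p (y axis, array units, log scale) against the log10 signal of the labelling spike-ins (x axis), 1 point per array, with 0 Gy in blue and 7 Gy in red. Open triangles are arrays without a detected signal, at the lowest signal detected for any miRNA, and all 3 lie at or below 2.31 on the x axis.

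Of 445 miRNAs detected on every 0 Gy array, 59 were detected on at most 1 of the 7 Gy arrays (13.3%), and miR-122-5p was 1 of 56 with exactly its calls on all 8 arrays. The array of 7 Gy replicate 2 detected 442 of the 445, whereas replicates 1, 3 and 4 detected 326, 328 and 388. Among the other 55 with these calls, 47 had a sequence to read, and the median GC content was 47.6% (quartiles 40.9% and 52.2%). Of 311 miRNAs detected on all 8 arrays 266 had a sequence, and their median GC content was 59.5% (quartiles 52.8% and 66.7%). This is a description of 2 groups formed by their detection, and the part of base composition was not tested.

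The non-irradiated arrays alone differed widely in miR-122-5p. Its scaled signal ranged 84.0-fold over the 4 arrays, and its log2 SD was 2.76. Much of this range came from 0 Gy replicate 3, at 5.26, while replicates 1, 2 and 4 had 179, 442 and 95.2. The value of replicate 3 came from probe A_54_P2401 alone and the others from both probes, which widens the range and the SD. Replicates 1 and 2 lay in slide row 1 and replicates 3 and 4 in slide row 2. The parts of serum, labelling and slide row in this spread were not tested. Among the 445 miRNAs detected on every 0 Gy array 7 had a larger SD, and the median SD was 0.75. The 7 were miR-16-5p, let-7g-5p, miR-20b-5p, miR-192-5p, miR-19a-3p, miR-20a-5p and let-7i-5p. Of these, miR-192-5p is abundant in liver and intestine and had an SD of 3.13, and miR-16-5p is abundant in red cells and had 3.69.

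In the liver list, miRNAs abundant or enriched in liver, 7 of 10 were detected on at least 3 arrays and 4 were tested. None of the 4 was higher or lower by limma (0 higher, 0 lower), beside 1.92% of all miRNAs tested in each direction. At an unadjusted p under 0.05 the count was also 0, beside 22.1% higher and 7.69% lower over all. With 4 tested, a count of 0 does not set the list apart. Their median log2 fold change was −0.19, and that of all miRNAs tested was 0.17. The list was described by counts only and held both miR-122 arms.

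Of the other liver miRNAs, miR-192-5p had scaled signals of 324, 167, 2.61 and 23.6 at 0 Gy and 230 on 7 Gy replicate 2 (log2 fold change −0.31, limma adjusted p = 0.657). miR-148a-3p had 153, 49.5, 10.4 and 25.2 at 0 Gy and 75.7 on 7 Gy replicate 2 (log2 fold change −0.15, limma adjusted p = 0.542). miR-194-5p, transcribed together with miR-192, had 65.6, 27.3, 16.4 and 30.5 at 0 Gy and 24.97 on 7 Gy replicate 2, always under the floor. Like miR-122-5p, these 3 were not detected on 7 Gy replicates 1, 3 and 4, and they were again lowest on 0 Gy replicate 3. Exactly these calls were held by 12.6% of the 445 miRNAs detected on every 0 Gy array. They were also held by 3 of 5 red cell and 4 of 5 white cell and platelet miRNAs, so that they are not particular to liver miRNAs.

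miR-22-3p, an abundant miRNA of liver and many other tissues, did not follow them. Its scaled signal was 5166, 3732, 13975 and 7894 in the non-irradiated sera and 9554, 3633, 4974 and 6595 in the irradiated ones (log2 fold change −0.23, limma adjusted p = 0.723). miR-33-5p, which lies in an intron of Srebf2, and miR-101a-3p were detected on 0 Gy replicates 1 and 2 and 7 Gy replicate 2. miR-101b-3p was detected on 0 Gy replicate 1 and 7 Gy replicate 2, and miR-802-5p on no array.

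**Figure D5:**
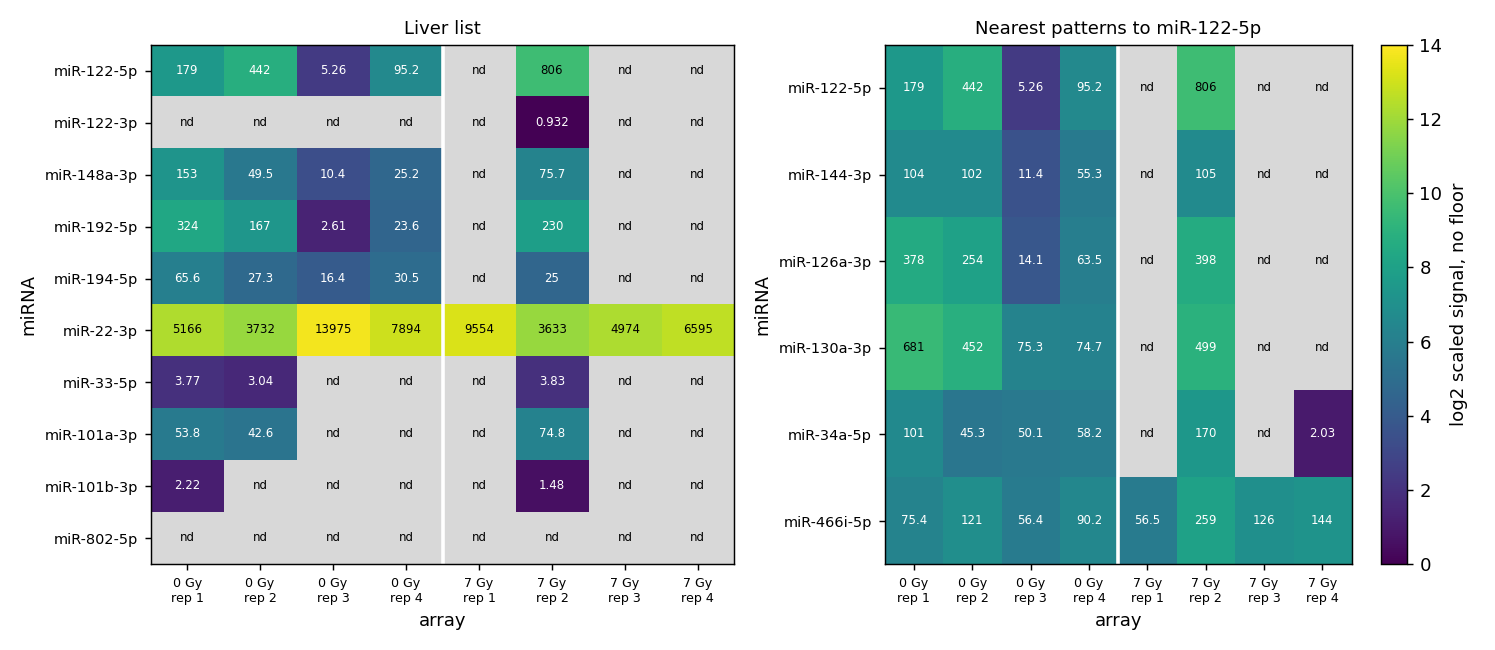
Scaled signal (array units, no floor, colour on a log2 scale) of the 10 liver-list miRNAs on the left and of miR-122-5p with the 5 miRNAs nearest to it in pattern on the right, with 1 column per array; nd marks signals not called detected. miR-122-5p, miR-148a-3p, miR-192-5p and miR-194-5p are detected on the same 5 arrays, whereas miR-22-3p stays between 3633 and 13975 on all 8.

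The miRNAs nearest to miR-122-5p in log2 scaled signal over the 8 arrays were miR-144-3p, miR-126a-3p, miR-130a-3p, miR-34a-5p and miR-466i-5p. miR-144-3p of red cell precursors had Pearson's r = 0.86 and Spearman's rho = 0.97. For miR-126a-3p of endothelial cells they were 0.85 and 0.97, and for miR-130a-3p 0.81 and 0.91. miR-34a-5p, a target of p53, had 0.77 and 0.75, and miR-466i-5p had 0.72 and 0.39. These coefficients describe 8 arrays that share the scaling and the floor, and the 5 miRNAs exceed the floor on 2 to 4 arrays each. The scaled signal of miR-126a-3p was 378, 254, 14.1 and 63.5 at 0 Gy and 398 on 7 Gy replicate 2. It was not detected on the other irradiated arrays.

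Serum also holds RNA of blood cells. The detection calls of miR-122-5p were shared by 3 of 5 red cell miRNAs (miR-144-3p, miR-16-5p and miR-15a-5p) and by 4 of 5 white cell and platelet miRNAs (miR-142a-3p, miR-150-5p, miR-21a-5p and miR-126a-3p), beside 12.6% of the miRNAs detected on every 0 Gy array. miR-486a-5p, another red cell miRNA, ran differently, with scaled signals of 6501, 8009, 34551 and 10752 in the non-irradiated sera and 12661, 2282, 25788 and 7312 in the irradiated ones. After scaling it was lowest on 7 Gy replicate 2, where miR-122-5p was highest, and highest on 0 Gy replicate 3, where detected miR-122-5p was lowest. Before scaling its signals on 7 Gy replicates 1 to 4 were 2922, 6026, 5569 and 9676, so that replicate 2 was not the lowest. 0 Gy replicate 3 was also the highest before scaling. All 5 members of both lists were tested and 0 were called in either direction by limma, with 1 in each list at an unadjusted p under 0.05 (miR-451a and miR-142a-3p, both lower at 7 Gy). Over all miRNAs tested 7.69% were lower and 22.1% higher at that unadjusted p, beside 1.92% in each direction after adjustment. The red cell list had a median log2 fold change of −1.34 and the white cell and platelet list of −0.89. The summed scaled signal of the red cell list was between 16485 and 82112 at 0 Gy and between 7323 and 25822 at 7 Gy. For the white cell and platelet list it was between 534 and 6147 and between 7.17 and 2278.

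The log2 ratio of miR-451a, the most abundant red cell miRNA, to miR-23a-3p, which red cells hold little of, is used to judge haemolysis. It was 5.08, 5.93, 3.13 and 3.32 on 0 Gy replicates 1 to 4 and 3.54 on 7 Gy replicate 2. On 7 Gy replicates 1, 3 and 4 it was −3.68, −2.92 and −4.72, so that the 3 sera without detected miR-122-5p were also those with the lowest ratio. The part of red cell content in the miR-122-5p signal was not tested.

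Of 7 muscle, 4 pancreas and 4 brain miRNAs 0 had the detection calls of miR-122-5p, beside 2.98% of all mouse miRNAs, so that a count of 0 does not set these tissues apart. In muscle, miR-133a-3p and miR-133b-3p were detected on all 8 arrays, and miR-133b-3p had scaled signals of 1799, 322, 1079 and 2121 in the non-irradiated sera and 795, 1544, 460 and 849 in the irradiated ones (log2 fold change −0.37, limma adjusted p = 0.70). The muscle miRNAs miR-1a-3p, miR-206-3p and miR-499-5p and the brain miRNA miR-219a-5p came closest in calls, lacking only that on 0 Gy replicate 3. Of these, miR-1a-3p had 228, 111 and 38.2 on 0 Gy replicates 1, 2 and 4, 65.0 on 7 Gy replicate 2 and no detection on the other 4 arrays. miR-375-3p of pancreatic islets had scaled signals between 115.2 and 129.9 at 0 Gy and of 470, 457, 362 and 125.9 on 7 Gy replicates 1 to 4, of which replicates 1, 3 and 4 had no detected miR-122-5p. Before scaling its signals on replicates 1 and 3 were 108.5 and 78.2, below the 0 Gy range of 122.1 to 330.5, and the scale factors of those arrays were 4.33 and 4.63. In the brain list miR-128-3p was detected on all 8 arrays, with 347, 124.1, 58.0 and 54.8 in the non-irradiated sera and 26.9, 78.8, 7.28 and 12.9 in the irradiated ones. Of the tested members, 3 in muscle, 1 in pancreas and 1 in brain, 0 passed in either direction by limma and 1, miR-375-3p, was higher at an unadjusted p under 0.05, beside the 1.92% and 22.1% of all miRNAs tested. The median log2 fold change was −0.37, 1.32 and −0.53. The summed scaled signal was between 603 and 3368 at 0 Gy and between 543 and 2410 at 7 Gy for muscle, between 115.3 and 130.2 and between 126.1 and 472 for pancreas, and between 58.4 and 362 and between 8.67 and 87.4 for brain.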

How the data were processed

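Per the file headers and labels, the authors labelled miRNAs in 30 ng of serum RNA with Cy3, hybridised them to 1 slide and extracted the intensity values with Agilent Feature Extraction 11.5. The deposited intensity values are background-subtracted and not normalized between arrays, with 0.1 where a miRNA was not called detected. The probes' spot intensity, median spot and background signals were used for probe values and alternatives. No spot was saturated.

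Arrays were scaled to a common 90th percentile, the percentile shift of the methods. The methods' cut-off (100) was taken as a floor before log2. miRNAs detected on at least 3 of 8 arrays and above the floor on at least 1 were tested with limma 3.58.1 in R 4.3.3 and Benjamini-Hochberg adjustment across all of them (208), with no covariate. For single values, two-sided exact permutation tests were run (70 arrangements, smallest p = 0.0286). The fit was checked on simulated independent normal values without floor, ties or shared array effects. That check does not cover miRNAs tied at the floor, such as miR-122-5p. The named miRNAs were both miR-122 arms, up to 5 members per list detected on at least 3 arrays and the 5 nearest by Pearson's r. Members and lists were chosen with earlier results of these data known. Alternatives covered scaling, floor, signal, background correction, filter, variance model, test, block, covariate and arrays. The number of arrays limits the precision.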

Additional observations from a re-analysis of the deposited data

Results flagged for a closer look

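Of 64 groups of 4 arrays examined over the named miRNAs, probes and array measures, 15 held 1 value on all arrays and 17 had 1 array whose gap to the next passed Dixon's 95% limit. In 10 of the 17 the other 3 arrays were tied at the floor, which fixed the outcome, so that the chance rate of about 5% for independent untied groups does not apply to this count. Most were 7 Gy replicate 2 standing alone. Its log2 scaled signal was 9.65 for miR-122-5p, 7.85 for miR-192-5p, 13.86 for miR-451a, 6.72 for miR-144-3p, 9.66 for miR-16-5p, 7.83 for miR-15a-5p, 7.75 for miR-223-3p, 10.61 for miR-21a-5p and 8.64 for miR-126a-3p, against 3 arrays at the floor of 6.64. The log2 share of miR-122-5p there was −6.83, its rank was 24, and its probes had scaled spot signals of 916 (A_54_P2400) and 1936 (A_54_P2401). Among the 0 Gy arrays, replicate 3 had the rank of 439 for miR-122-5p. 0 Gy replicate 1 stood apart with a log2 scaled signal of 7.26 for miR-148a-3p and 7.83 for miR-1a-3p, and 0 Gy replicate 2 with 6.85 for miR-375-3p.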

How the results depend on the processing

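The log2 fold change of miR-122-5p passed the test under none of the 32 alternatives that gave a value. It lay below 0 with the 75th (−0.26) or 90th (−0.27) percentile set by only the 311 miRNAs seen on every array, quantile normalization (−0.21), no scaling (−0.28), a floor of 10 (−1.64) or 30 (−0.84), no floor (−5.41), mean spot signals (−0.45), normexp (−0.85) and array weights (−0.42). Among alternatives added after seeing the data, −3.13 was found with undetected signals at the lowest detected one and −1.37 with labelling spike-in scaling as well. Leaving out each array gave −0.75 to 0.47. Restricting the filter to miRNAs detected on all 8 arrays gave no value for miR-122-5p.

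The 8 calls over all miRNAs became 18 with the 75th percentile of those 311, 28 and 5 with floors of 10 and 30, 2 with no floor, 15 with mean spot signals, 19 with normexp, 4 with a trended robust prior, 75 with array weights, 26 with the slide row as a block, 1 on the arrays in range, and 48 or, after adjustment, 2 by the methods' t-test. The count was 0 in limma with the 75th percentile over all miRNAs (21 higher and 4 lower at an unadjusted p under 0.05), no scaling (1 and 17), both spike-ins (19 and 8), labelling spike-ins alone (26 and 3, chosen later), no filter (39 and 14) and the labelling covariate (12 and 21). Leaving out each array gave 1 to 70, each over 1.5 times from 8, with 70 (56 higher, 14 lower) without 7 Gy replicate 2 and 1 to 5 without any other array. Scaling moved the split of 4 higher and 4 lower to 7 and 11 (75th percentile of the 311), 6 and 1 (90th) and 2 and 4 (quantile), and the median log2 fold change of all miRNAs from 0.17 to between −0.12 and 0.65. In every setting 0 liver-list miRNAs were called.

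On the arrays in range the log2 share of miR-122-5p differed by 3.91 and its rank by −142, opposite to all arrays. Leaving out each array gave −8.40 to −3.80 for the share and 596 to 996 for the rank.

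Same-numbered arrays did not all deviate together (r = −0.34, 0.43, 0.55 and 0.42), so that the numbers were not taken as pairs. With the replicate block miR-122-5p kept a log2 fold change of 0.0068 (standard error 0.31), its share −5.32 and its rank difference 712 (exact p = 0.250 for both), and 0 miRNAs were called in limma (47 higher and 18 lower unadjusted). The cause of these changes was not tested.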
